A study of Mus musculus with 24 samples.

Results

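The tumor effect in mouse liver was compared between 192 h and 18 h after tumor cell injection, over every gene measured on the arrays. The comparison used 4 biological pairs at 192 h and 4 at 18 h, which are 16 of the 24 arrays of the series, and 1588 of 10080 probes that gave values in at least 3 of the 4 pairs at each time. The 1588 probes stood for 1426 named genes. The remaining arrays, taken at 72 h, entered only the estimate of the spread.

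At 192 h the animals were male C57Bl/6 mice that had received 1e+06 LL/2(LLC1) tumor cells under the skin, suspended in 300 µl of phosphate-buffered saline (PBS). They were set against mice that had received 300 µl of PBS alone and were killed at the same time. At 18 h the mice had the same injections and were killed 18 h later. All mice were 8 weeks old when injected. LL/2(LLC1), the Lewis lung carcinoma line, grows as a solid tumor under the skin of this mouse strain, so the liver was a distant organ and not the site of the tumor. RNA of a tumor liver and of a PBS liver was labelled with Cy3 and Cy5 and hybridised together on an oligonucleotide array printed in house, and a second array of every pair had the dyes swapped. The replicates are named biological in the series' design, but whether each sample was 1 animal or a pool is not said, so p-values measure only the spread between these samples.

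The liver answers distant injury and tumors mainly through secreted signals. Cytokines of the interleukin-6 family switch hepatocytes to the acute phase program of plasma proteins. Glucocorticoids and a fall in food intake raise gluconeogenesis, and a fall in food intake also lowers lipid synthesis. Hepatocytes also secrete most plasma proteins, so that a change in secretory load is met by the unfolded protein response of the endoplasmic reticulum (ER).

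Values are log ratios of tumor over PBS from the authors' value table, averaged over the dye-swapped arrays of a pair. They are read as log2, but the base is not stated and was inferred. A difference is the mean ratio at 192 h minus the mean ratio at 18 h. A positive difference is therefore a higher tumor effect at 192 h. The tumor over PBS direction is likely but not stated in the files: its basis is that Cy3 is usually listed before Cy5, so that channel A would be Cy3; otherwise every sign below turns. A single array held values for 1278 to 8768 spots. Values on both arrays of a pair numbered 1237, 3485, 3578 and 2752 in replicates 1 to 4 at 192 h, against 3210, 949, 6505 and 6807 at 18 h. The dye-swapped arrays of a pair agreed poorly, and in most pairs they ran against each other. Their correlation over all spots was 0.63, -0.29, -0.42 and -0.10 at 192 h and 0.25, -0.15, -0.11 and -0.20 at 18 h. Whether a dye bias, low signal or a wrongly labelled dye orientation lay behind this was not tested. With a dye coefficient fitted, limma's estimate of the correlation between a pair's arrays was 0.29 over the probes tested. It is taken probe by probe over the whole series, so it is not the same measure as the correlations over spots. Precision below is limited by the disagreement of dye-swapped arrays and by the small number of arrays. A constant dye bias would cancel in a pair's mean. The median standard error (SE) of a difference was 0.096 on the log2 scale.

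Pairs of the same time resembled each other little. Pearson correlations between pairs over the probes tested were -0.44 to 0.11 within 192 h and -0.22 to 0.36 within 18 h. Between the times they were -0.36 to 0.56. Replicate 1 at 192 h stood apart from its group: it correlated at 0.46, 0.56 and 0.52 with replicates 1, 3 and 4 at 18 h, and at -0.41, 0.06 and 0.01 with replicates 2, 3 and 4 at 192 h. Its values also spread more widely, with a standard deviation over probes of 0.31, against 0.13, 0.13 and 0.20 in the other pairs of that time. Yet its dye-swapped arrays agreed best, at 0.63, against -0.29, -0.42 and -0.10 in those other pairs. Results without it therefore rest on pairs whose own arrays did not agree. These correlations are across genes, which are not independent replicates, and results are given below with and without this pair where it moves them.

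**Figure D1:**
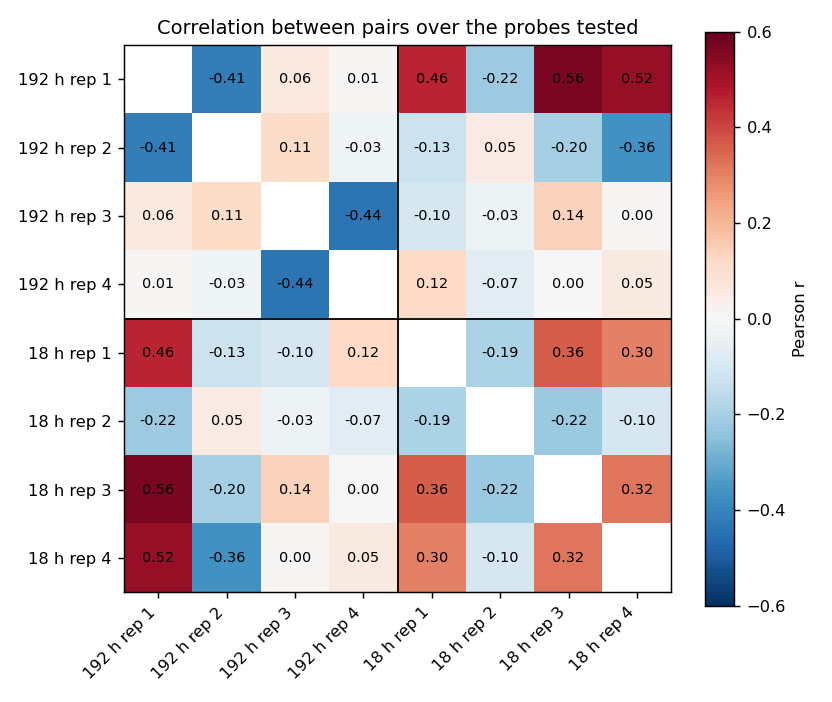
Pearson correlation of tumor over PBS log2 ratios between the 8 pairs, over the probes measured in both pairs of each cell; the 192 h pairs come first and black lines part the times. Replicate 1 at 192 h correlates at 0.46 to 0.56 with 3 of the 18 h pairs and at -0.41 to 0.06 with the other pairs of its own time.

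No gene passed the test of the difference between 192 h and 18 h. With limma and Benjamini-Hochberg adjustment, 0 of 1588 probes (0%) had an adjusted p under 0.05, and the smallest adjusted p was 0.999. At an unadjusted p under 0.05 there were 62 probes (3.9%), where 79.4 would be expected with no effect on any probe. Of these 62, 28 (1.76%) were higher at 192 h and 34 (2.14%) were lower. The pair values of the times did not overlap in 101 probes (6.36%), 51 of them higher at 192 h (3.21%) and 50 lower (3.15%). The differences were small: their central 95% ran from -0.23 to 0.23, 3 probes differed by more than 0.5 and 0 by more than 1. The 3 were Pck1, Lipa and 2310015D24Rik, the last one (-0.62, SE 0.27) named after its value was seen. Without replicate 1 at 192 h the count at an unadjusted p under 0.05 was 120 (7.56% of the probes), and 0 probes passed the adjusted threshold (smallest adjusted p 0.498).

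The tumor effect itself did not pass the test at either time. At 192 h, 0 of 1588 probes were called by limma and 54 had an unadjusted p under 0.05, with a smallest adjusted p of 0.996. At 18 h, 0 were called and 108 had an unadjusted p under 0.05, with a smallest adjusted p of 0.660. With no effect on any probe, 79.4 of 1588 would be expected under 0.05 at either time. The median spread among pairs was a standard deviation of 0.13 at 192 h and 0.098 at 18 h. All 28 probes that were higher at 192 h at an unadjusted p under 0.05 had a mean ratio below 0 at 18 h, and 25 of them had one above 0 at 192 h. Of the 34 lower ones, 34 had a mean above 0 at 18 h and 1 at 192 h. These probes were picked by their difference, so opposite signs are favoured by the choice. All genes described from here on therefore have values that did not pass the adjusted test (limma, adjusted p 0.999 or higher), and a gene is described by its values, its difference and the SE of limma's fit.

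**Figure D2:**
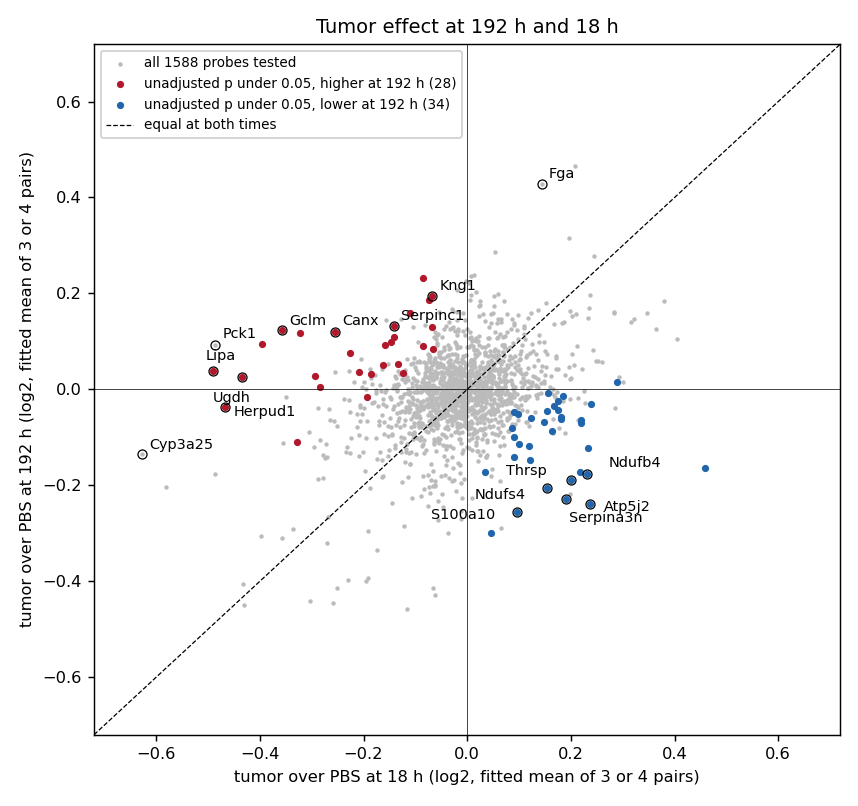
Fitted mean tumor over PBS log2 ratio of each of 1588 probes at 192 h (vertical) and at 18 h (horizontal). Coloured points had an unadjusted p under 0.05 for the difference (28 higher and 34 lower at 192 h), and circles mark named genes; no point passed the adjusted test.

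Genes of the ER stress response lay mostly on the positive side, that is higher at 192 h. Of 38 genes in the list, 8 were tested; 7 of these had a positive difference (835 of 1588 probes did, 52.6%), and the median difference was 0.11, against 0.0058 over all probes. Of these 8, Herpud1, Canx and Ern1 had an unadjusted p under 0.05. Over all probes, 28 of 1588 (1.76%) had such a p and were higher at 192 h. These shares over all probes are the background of each list below. The median ratio of the list was 0.041 at 192 h and -0.085 at 18 h. By pair, the list's median was 0.010, -0.040, 0.072 and 0.030 in replicates 1 to 4 at 192 h, and -0.093, 0.025, -0.073 and -0.12 at 18 h. The times overlapped through replicate 2 of both: its median was the lowest at 192 h and the highest at 18 h. Each pair's median covers only the members measured in that pair. Herpud1, Ern1 and Dnajc3 gave no value in replicate 2 at 18 h, and what this adds to the overlap was not tested. Without replicate 1 at 192 h the list's median difference was 0.071. In replicates 1 and 2 alone the sign of the list's median turned, over the fewer members that could still be fitted.

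Herpud1 encodes a membrane protein of the ER that takes part in the degradation of misfolded proteins and is a classic target of the unfolded protein response. Its ratio was 0.031, -0.13 and -0.011 in replicates 2, 3 and 4 at 192 h, against -0.27, -0.80 and -0.34 in replicates 1, 3 and 4 at 18 h. All 3 measured pairs at 18 h lay below all 3 at 192 h, which were near 0. The difference was 0.43 (SE 0.16) and kept its sign in all 25 alternative analyses that gave a value. Some alternatives could not turn the sign of this or later genes. They changed only the estimate of the spread, or left out pairs without a value for the gene. Replicate 1 at 192 h and replicate 2 at 18 h lacked a value on 1 or both arrays for this gene and so gave none.

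Canx encodes calnexin, the lectin chaperone that folds glycoproteins of the secretory pathway. Canx had ratios of 0.064, 0.35 and -0.054 in replicates 2, 3 and 4 at 192 h, against -0.72, 0.073, -0.17 and -0.20 in replicates 1 to 4 at 18 h. The groups overlapped through replicate 2 at 18 h, and the difference was 0.37 (SE 0.17). Ern1 encodes IRE1 alpha, a sensor kinase and ribonuclease that starts the response. Its ratios were 0.010, 0.013, 0.074 and 0.031 in replicates 1 to 4 at 192 h, against -0.092, -0.062 and -0.40 in replicates 1, 3 and 4 at 18 h. The groups did not overlap, and the difference was 0.22 (SE 0.089), but its sign turned with means over whichever array held a value and with ratios from the scans without background subtraction.

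Dnajc3 encodes a co-chaperone of the ER lumen that also inhibits the kinase PERK. The Dnajc3 ratio was 0.21, 0.084 and 0.030 in replicates 1, 3 and 4 at 192 h, against -0.032, -0.063 and -0.051 in replicates 1, 3 and 4 at 18 h. These values did not overlap, with a difference of 0.16 (SE 0.097). The list's negative difference was that of Hsp90b1, the ER chaperone GRP94, at -0.16 (SE 0.27), where replicate 2 at 192 h alone held a ratio of -0.91. P4hb, Syvn1 and Pdia6 had differences of 0.0078 to 0.063.

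Promoters of these genes are shown because most of the list's measured members share an element there. The ER stress response element is CCAAT followed by CCACG with 9 bases of any kind between them. A shorter relative, ER stress response element II, is ATTGG followed by CCACG with 1 base between them, and so shares its right end with the first. Both strands were searched from 250 bases before to 50 bases after each RefSeq gene start of assembly GRCm38.p6. The first element was found in 39 of 32851 promoters (0.119%) and the second in 12 (0.0365%). Of the 8 measured genes of the list, Canx, Dnajc3, Hsp90b1, Pdia6 and Syvn1 held the first and Herpud1 the second. The list was drawn up from known targets of the pathway, so the share is a description of the list. The 5′ to 3′ sequences of the gene's own strand follow, at chr8:94386179-94386478 (plus strand) for Herpud1, chr11:50325624-50325923 (minus strand) for Canx and chr14:118937682-118937981 (plus strand) for Dnajc3, with the matches in capitals.
Herpud1: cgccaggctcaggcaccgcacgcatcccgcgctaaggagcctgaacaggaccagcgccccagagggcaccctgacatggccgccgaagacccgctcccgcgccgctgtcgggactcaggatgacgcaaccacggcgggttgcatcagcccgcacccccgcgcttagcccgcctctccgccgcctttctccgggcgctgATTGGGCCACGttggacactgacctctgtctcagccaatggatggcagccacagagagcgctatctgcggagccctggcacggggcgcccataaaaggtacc
Canx: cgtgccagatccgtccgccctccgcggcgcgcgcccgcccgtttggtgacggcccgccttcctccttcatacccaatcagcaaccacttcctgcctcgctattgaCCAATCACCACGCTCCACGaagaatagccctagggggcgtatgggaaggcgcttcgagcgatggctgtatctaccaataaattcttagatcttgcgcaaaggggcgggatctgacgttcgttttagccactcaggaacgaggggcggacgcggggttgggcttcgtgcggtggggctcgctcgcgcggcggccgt
Dnajc3: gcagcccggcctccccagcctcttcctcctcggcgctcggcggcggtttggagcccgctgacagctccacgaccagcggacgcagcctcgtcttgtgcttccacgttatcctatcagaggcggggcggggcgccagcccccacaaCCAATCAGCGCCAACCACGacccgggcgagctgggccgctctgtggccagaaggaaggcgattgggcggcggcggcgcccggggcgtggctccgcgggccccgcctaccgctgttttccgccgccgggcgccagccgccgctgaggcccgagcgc
The match starts 52 bases before the gene start in Herpud1, 145 before it in Canx and 105 before it in Dnajc3. Hsp90b1 holds 2 matches and had a negative difference, so members with the element lay on both sides of 0.

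Genes of antioxidant defence and conjugation included several of the genes with positive differences. Of 36 genes in the antioxidant and NRF2 target list, 10 were tested and 7 had a positive difference, with a median of 0.085 that turned negative with unsubtracted ratios from the scans. Gclm, the modifier subunit of the enzyme that limits glutathione synthesis, had ratios of 0.20, 0.062 and 0.11 in replicates 2, 3 and 4 at 192 h, against -0.45, -0.54 and -0.080 in replicates 1, 3 and 4 at 18 h. All 192 h pairs were above 0 and all 18 h pairs below it, and the difference of 0.48 (SE 0.13) kept its sign in all 24 alternative analyses. Pon3, a lactonase carried on high-density lipoprotein, lay near 0 in the 192 h pairs and at -0.24, -0.53 and -0.085 in the 18 h pairs, with a difference of 0.29 (SE 0.12). Selenbp2 and Srxn1 had differences of -0.28 and -0.17.

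Ugdh makes UDP-glucuronate, the donor for glucuronidation. Its ratio was 0.050, 0.11 and -0.079 in replicates 2, 3 and 4 at 192 h, against -0.69, -0.50 and -0.12 in replicates 1, 3 and 4 at 18 h. The groups did not overlap (difference 0.46, SE 0.14). The list of conjugation enzymes as a whole had a median difference of 0.013 over 9 members, 5 positive and 4 negative, close to that of all probes. Among 10 cytochrome P450 genes, 4 were positive and 6 negative with a median of -0.026 (0.025 without replicate 1 at 192 h), and their values ranged from -0.42 for Cyp7b1, an oxysterol hydroxylase, to 0.49 for Cyp3a25, a drug-metabolising enzyme. Cyp3a25 had the lowest ratio at 18 h among the genes named here, -1.28 in replicate 1, and an SE of 0.26. Cyp2j5 had a difference of -0.37 that was 0.028 without replicate 1 at 192 h, where its ratio was -1.22.

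Genes of lysosomes also had positive differences in part. Of 12 tested genes of autophagy and the lysosome, 8 were positive with a median of 0.045, a sign that turned in 3 of 27 alternative analyses. Their median was 0.11 without replicate 1 at 192 h. Lipa, lysosomal acid lipase, had ratios of 0.088, 0.064 and -0.035 in replicates 2, 3 and 4 at 192 h, against -0.97, -0.41 and -0.091 in replicates 1, 3 and 4 at 18 h. The 192 h pairs lay around 0 and the 18 h pairs all below them, and the difference was 0.53 (SE 0.20). Lgmn, the lysosomal protease legumain, had a difference of 0.25 (SE 0.10).

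**Figure D3:**
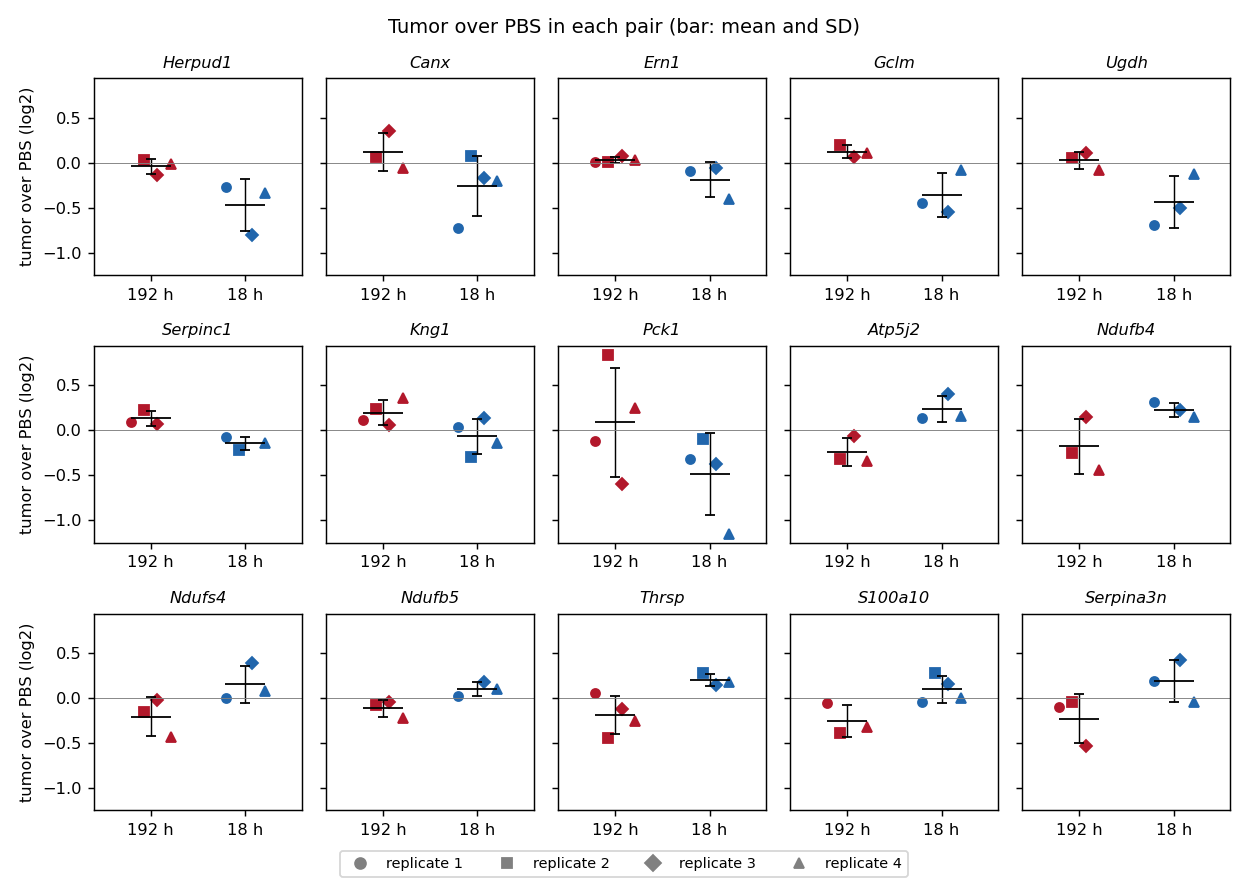
Tumor over PBS log2 ratios of 15 genes in each pair, 192 h left (red) and 18 h right (blue); the marker's shape gives the replicate, and the bar gives the mean and standard deviation of 3 or 4 pairs. Herpud1, Gclm and Ugdh lie near 0 at 192 h and below 0 at 18 h, while Atp5j2 lies below 0 at 192 h and above it at 18 h.

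Plasma protein genes did not share a direction. Of 9 coagulation and fibrinolysis genes tested from a list of 26, 7 had a positive difference with a median of 0.097, and without replicate 1 at 192 h the median was 0.26. Serpinc1, antithrombin, had ratios of 0.095, 0.23 and 0.073 in replicates 1 to 3 at 192 h, against -0.072, -0.22 and -0.14 in replicates 1, 2 and 4 at 18 h. Its groups did not overlap and the difference was 0.27 (SE 0.080), yet the sign turned under normexp and unsubtracted ratios from the scans. Kng1, the kininogen that is the source of bradykinin, was measured in all 8 pairs: 0.11, 0.24, 0.058 and 0.37 in replicates 1 to 4 at 192 h, against 0.040, -0.30, 0.13 and -0.14 at 18 h. Replicate 3 at 18 h lay above replicates 1 and 3 at 192 h, so the groups overlapped, and the difference was 0.26 (SE 0.096). Cpn2, the regulatory subunit of the plasma carboxypeptidase that inactivates kinins and anaphylatoxins, had 0.018, 0.027 and 0.18 in replicates 2, 3 and 4 at 192 h, against -0.31, -0.17 and -0.20 in replicates 1, 3 and 4 at 18 h. Its difference was 0.30 (SE 0.086) with no overlap.

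The positive acute phase proteins, measured in 8 of 30 genes, had 5 positive and 3 negative differences and a median of 0.098, which was 0.22 without replicate 1 at 192 h and turned negative without replicate 4 at 192 h and in replicates 1 and 2 alone. Fga, the fibrinogen alpha chain, had ratios of 0.013, 0.71, 0.40 and 0.60 in replicates 1 to 4 at 192 h, against 0.041, -0.048, 0.66 and -0.081 at 18 h. Fga was high in 3 of 4 pairs at 192 h and in 1 of 4 at 18 h, and its difference was 0.28 (SE 0.17). Serpina3n, an acute phase protease inhibitor, ran the other way: -0.10, -0.045 and -0.54 in replicates 1 to 3 at 192 h, against 0.19, 0.42 and -0.042 in replicates 1, 3 and 4 at 18 h. The difference was -0.42 (SE 0.16), but it was 0.043 from the arrays with tumor RNA in Cy3 and -0.54 from those with tumor RNA in Cy5, and its sign turned in 2 of 23 alternative analyses. Crp and Lbp had differences of 0.13 and 0.064. Without replicate 1 at 192 h, where the ratio of Crp was -0.79, the difference of Crp was 0.35, and it was -0.27 in replicates 1 and 2 alone and 0.53 in replicates 3 and 4 alone.

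All 4 tested genes of glucocorticoid targets and gluconeogenic regulators had positive differences, with a median of 0.18 from a list of 22. Pck1, the cytosolic enzyme that commits carbon to gluconeogenesis, had -0.12, 0.84, -0.60 and 0.25 in replicates 1 to 4 at 192 h, against -0.32, -0.096, -0.38 and -1.15 at 18 h. The 192 h pairs ran from the highest to the second lowest value of the gene, so that its difference of 0.58, the highest of the 1588 probes, had an SE of 0.28. Dusp1, Cebpb and Cebpa, a phosphatase and a pair of liver transcription factors, had differences of 0.15, 0.21 and 0.13, and each had overlapping groups. Of the other genes of glucose metabolism, Khk, Pklr, Gapdh, Pcx and Pygl had negative differences between -0.23 and -0.063. That of Pklr, the liver pyruvate kinase, was -0.21, and -0.073 without replicate 1 at 192 h. The glucose metabolism list of 7 had a median of -0.10, which turned positive without replicate 1 at 192 h and replicate 2 at 18 h together.

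Genes of mitochondrial energy metabolism lay mostly on the negative side, that is lower at 192 h. Of 78 subunits of oxidative phosphorylation, 42 were tested; 26 had a negative difference (753 of all 1588 probes did, 47.4%) and 16 a positive one, and the median was -0.047. The median ratio of the subunits was -0.041 at 192 h and 0.0081 at 18 h. By pair it was 0.084, -0.13, -0.016 and -0.12 in replicates 1 to 4 at 192 h, and -0.020, -0.063, 0.044 and 0.049 at 18 h. The values of the times overlapped: replicate 1 at 192 h was the highest of all 8 pairs, and without it the median difference was -0.11. Each pair's median covers only the members measured in that pair. The subunits Atp5j2, Ndufb4, Ndufs4 and Ndufb5 gave no value in replicate 1 at 192 h, and what this adds to its median was not tested. The sign of the list's median turned in replicates 1 and 2 alone, where Atp5j2, Ndufb4, Ndufs4 and Ndufb5 could not be fitted.

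Atp5j2, the f subunit of ATP synthase, had the smallest p of all probes for the difference. Its ratio was -0.31, -0.062 and -0.34 in replicates 2, 3 and 4 at 192 h, against 0.14, 0.41 and 0.16 in replicates 1, 3 and 4 at 18 h. All 192 h pairs were below 0 and all 18 h pairs above it, and the difference was -0.48 (SE 0.10); it kept its sign in all 25 alternative analyses. Ndufb4, an accessory subunit of complex I, had -0.25, 0.15 and -0.44 in replicates 2, 3 and 4 at 192 h, against 0.31, 0.23 and 0.15 in replicates 1, 3 and 4 at 18 h. Replicate 3 at 192 h lay within the range of the 18 h pairs, and the difference was -0.41 (SE 0.13).

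Further complex I subunits lay the same way. Ndufs4, needed for the assembly of the complex, had -0.16, -0.020 and -0.44 in replicates 2, 3 and 4 at 192 h, against -0.0039, 0.38 and 0.079 in replicates 1, 3 and 4 at 18 h, a difference of -0.36 (SE 0.13). Ndufb5 had -0.079, -0.040 and -0.22 in these 192 h pairs, against 0.022, 0.17 and 0.11 in the 18 h pairs, a difference of -0.21 (SE 0.077). Neither gene's groups overlapped. Uqcrb, a subunit of complex III named after its values were seen, was the fifth subunit with an unadjusted p under 0.05, at -0.20 (SE 0.085). Over all probes, 34 of 1588 (2.14%) had such a p and were lower at 192 h. At the other end stood Sdhd, a subunit of complex II, at 0.17, followed by Uqcrfs1 and Atp5j at 0.13 and 0.11.

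Among the genes of smallest p were also 2 of the mitochondrial ribosome. No list of its genes was drawn up, so its other members were not counted in either direction. Mrps24 had -0.43, -0.075 and -0.39 in replicates 2, 3 and 4 at 192 h, against 0.11, -0.015 and 0.045 in replicates 1, 3 and 4 at 18 h, with a difference of -0.35 (SE 0.11). Mrps18c had a difference of -0.24 (SE 0.076), also without overlap. Of the cytosolic ribosomal proteins, 21 of 31 had a positive difference, with a median of 0.021. Their sign was not stable, since the median turned to -0.079 without replicate 1 at 192 h and also turned in 6 other analyses, the quantile normalization among them. By pair the median of the cytosolic ribosomal proteins was 0.34, -0.15, 0.026 and 0.026 in replicates 1 to 4 at 192 h, and 0.028, -0.15, 0.22 and 0.081 at 18 h, a range among pairs far wider than the difference between the times. These medians, too, cover only the members measured in each pair.

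The lipogenesis and fatty acid oxidation lists had mostly negative differences. Of 16 lipogenesis genes, 12 were negative with a median of -0.071, and of 9 fatty acid oxidation genes 7 were negative with a median of -0.095. Without replicate 1 at 192 h the medians were -0.026 and -0.0050. Thrsp, the thyroid hormone responsive Spot 14 protein that promotes lipogenesis, had 0.059, -0.44, -0.12 and -0.25 in replicates 1 to 4 at 192 h, against 0.27, 0.15 and 0.18 in replicates 2, 3 and 4 at 18 h. Every 192 h pair lay below every 18 h pair, and the difference was -0.39 (SE 0.11) and -0.47 without replicate 1 at 192 h. Elovl3, an elongase of very long chain fatty acids, had a difference of -0.35 with an SE of 0.27, and its ratio was -1.03 in replicate 4 at 192 h. Among the oxidation genes, Cyp4a10 and Echs1 had their lowest ratios, -1.26 and -0.79, in replicate 1 at 192 h, and without that pair their differences were 0.084 and 0.016.

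**Figure D4:**
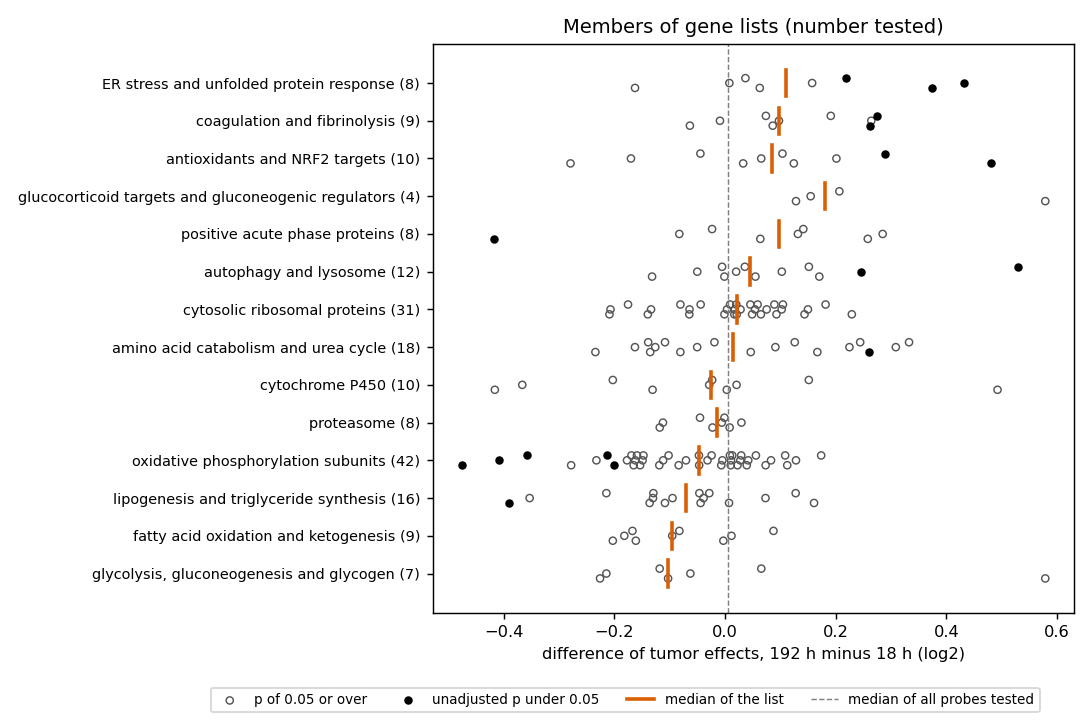
Difference of tumor effects (192 h minus 18 h, log2) of each tested member of 14 gene lists, with the number tested in brackets; filled points had an unadjusted p under 0.05, orange bars are list medians and the dashed line is the median of all 1588 probes. ER stress genes lie mostly to the right and oxidative phosphorylation subunits mostly to the left, with wide overlap between all lists.

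Outside these lists, S100a10, the partner of annexin A2 in membrane complexes, had -0.052, -0.39 and -0.32 in replicates 1, 2 and 4 at 192 h, against -0.041, 0.28, 0.15 and -0.0035 in replicates 1 to 4 at 18 h. Its groups did not overlap, by a narrow gap between the replicates numbered 1, and the difference was -0.35 (SE 0.10). Upk2, a uroplakin best known from the bladder lining, was higher in every 192 h pair: 0.11, 0.066, 0.066 and 0.27, against -0.080, -0.045, -0.12 and -0.024 at 18 h. Its difference was 0.20 (SE 0.067) and kept its sign in all 26 alternative analyses. Atp2a2, the calcium pump of the ER, had a difference of 0.25 (SE 0.076), and Plin4, a lipid droplet coat protein, one of 0.32 (SE 0.12), both with no overlap. Taf10, a subunit of the general transcription factor TFIID, had -0.36 (SE 0.12).

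Markers of cell types could barely be read. Of 87 marker genes in 8 lists, 39 were on the array and 9 were tested. The hepatocyte list was represented by Hnf4a, with a difference of -0.0096 (0.063 without replicate 1 at 192 h), so that the labelled tissue could not be checked by its albumin or apolipoprotein markers. For Kupffer cells, 4 of 15 markers were tested: C1qb, Clec4f, Marco and Cd68 had differences of -0.097, -0.068, 0.011 and 0.11, with a median of -0.029. The difference of Clec4f was -0.22, that of Cd68 was 0.072 and the median was -0.043 without replicate 1 at 192 h. The neutrophil marker S100a8 had ratios of 0.68, -0.47, 0.21 and 0.21 in replicates 1 to 4 at 192 h, against -0.026, 0.23 and -0.12 in replicates 1, 3 and 4 at 18 h. Its difference was 0.13, and -0.047 without replicate 1 at 192 h. No marker of lymphocytes or erythroid cells was tested. In whole liver, fewer cells of a type and less RNA per cell cannot be told apart.

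The genes named above were measured unevenly over the pairs. Replicate 1 at 192 h lacked a value on 1 or both arrays for 610 of 1588 probes (38.4%), and for 34 of the 62 probes with an unadjusted p under 0.05 (54.8%). Among the 101 probes whose groups did not overlap the share was 75 (74.3%). For replicate 2 at 18 h the counts were 773 of 1588 (48.7%), 40 of 62 (64.5%) and 81 of 101 (80.2%). Groups of 3 pairs are also less likely to overlap than groups of 4, and the part of the missing pairs in these counts was not tested. Taken from arrays of a single dye orientation, where a constant dye bias cancels between the times, the differences of the 1588 probes correlated at r = 0.22 between tumor RNA in Cy3 and tumor RNA in Cy5, and 870 of 1588 had the same sign in both. With tumor RNA in Cy3 and in Cy5 in turn, the difference was 0.11 and 0.41 for Kng1 and 0.075 and 0.36 for Lgmn. It was 0.50 and 0.15 for Plin4, while Serpinc1 had 0.24 and 0.27.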

How the data were processed

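Livers were profiled as direct tumor against PBS hybridisations, with groups, replicate numbers and dyes taken from the labels. The log2 ratios analysed here are the authors' deposited values, with empty cells for unmeasured spots. Scale, centring and direction of these log2 ratios are not stated in the deposited table, and were inferred from the scans. Per the file headers, each array has 3 scans holding spot intensity in channels A and B corrected for background, with a saturation fraction per spot. The deposited values correlated with log ratios of the scans at 0.51 to 0.84 per array of the 2 times, with medians of -0.0334 to 0.00497. Their spread was 0.622 to 0.855 times that of log2 ratios in spots above 4 times background. This range does not settle the log base, so sizes given as log2 rest on an inferred scale. The relative spread was smaller in spots below 0.5 times background on 13 of the 14 arrays with spots of both kinds. Differences of dim genes may therefore be understated. Spots were dim, with a median total intensity per array of 1.55 to 2.27 times the local background. Cy3 is the usual order for channel A. The image software is not given in the sources used here.

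Dye-swapped arrays share their RNA, so their values were averaged to 1 value a pair, and only where both arrays had one. Probes with values in at least 3 of 4 pairs at each time were fitted in R 4.3.3 by limma's lmFit and eBayes (version 3.58.1), with a coefficient for each time over all 12 pairs including 72 h. Two-sided p-values were adjusted by Benjamini-Hochberg over 1588 probes, with a threshold of 0.05. The scripts were tested on simulated data.

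The comparison, members and gene lists were chosen with earlier results of these data known. Named genes were the 15 of smallest p in each direction and the 4 of smallest p in each of 37 lists; other members given by value alone were picked after seeing them. Symbols came from the platform annotation, updated through RefSeq genes of GRCm38.p6: 9066 of 10080 probes had 1 symbol, 12 several and 1002 none listed. A gene with several probes (14 genes) was read from the probe with the most measured pairs. No genome build is given for the probes.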

Additional observations from a re-analysis of the deposited data

Results flagged for a closer look

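Within the groups of 4 pairs, 1 pair lay far from the other 3 in 7 of 173 groups tested, where chance alone would give about 8.65. The ratio of Fga was 0.66 in replicate 3 at 18 h, against -0.081 to 0.041 in the other pairs. That of Crp, the C-reactive protein, was -0.62 in replicate 4 at 18 h, against -0.20 to -0.14. Replicate 4 at 192 h held 3 such values: -1.03 for Elovl3 (others -0.12 to 0.056), -0.16 for the proteasome subunit Psma3 (others 0.0027 to 0.029) and 0.39 for the immediate early gene Fos (others -0.19 to -0.11). Replicate 4 at 18 h held 0.23 for the interferon-induced Ifi27 (others 0.026 to 0.039) and a median of -0.095 over the cytochrome P450 genes (others -0.028 to -0.015).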

How the results depend on the processing

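The count of 0 genes called for the difference held in all 28 alternative analyses (limma, smallest adjusted p 0.228 to 1.000), and for the tumor effect at each time in all 26 (smallest adjusted p 0.259 at 192 h and 0.0731 at 18 h). Both sets include the setting with every sign turned, which cannot change a two-sided p and so is no check of these counts. The count at an unadjusted p under 0.05, 62 of 1588 probes, varied more. It was 177 of 4993 probes with the mean of whichever array held a value and 213 of 4993 with single arrays and a dye coefficient on the same probes. It was 129 of 3063 with at least 2 of 4 pairs, 8 of 506 with all 8 pairs measured, 28 of 902 without spots that failed in any scan and 39 of 2237 with normexp ratios from the scans. These settings change how many probes are tested. On the same 1588 probes the count was 42 when only the 8 pairs of 192 h and 18 h were fitted. It was 43 with single arrays and a dye coefficient. The SEs and p-values given for genes use a spread that includes the 72 h pairs, and so depend on that choice. Leaving out 1 pair at a time gave 45 to 120, the highest without replicate 1 at 192 h. Leaving out that pair and replicate 2 at 18 h together, chosen after seeing the data, gave 152, and replicates 1 and 2 alone gave 4 of 670; the cause was not tested. Same-numbered pairs of the 2 times deviated together at r = 0.16, 0.49, 0.059 and 0.021, so the numbers were not taken to pair the samples; the fit with the replicate block called 0 probes, with 45 at an unadjusted p under 0.05. Of 122 genes named by the rule, 72 kept the sign of their difference in every alternative that gave a value. Some of these alternatives could not turn a sign, so the count is no independent support. Median centring split the 59 probes under 0.05 as 27 higher and 32 lower, quantile normalization 31 and 43, and normexp 28 and 11, against 28 and 34. The few values shared by dye-swapped arrays limit all of these numbers. Spots near background limit them too, though 1578 of the 1588 main probes were at or above the median brightness of all probes.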

Other observations

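The lists not described above held no probe that passed the adjusted test either. Among 18 tested genes of amino acid breakdown and the urea cycle, 9 differences were positive and 9 negative, with a median of 0.014. That median was 0.16 without replicate 1 at 192 h, and its sign turned in 12 of 27 alternative analyses. Hal, the histidine ammonia-lyase that opens histidine breakdown, was the list's only member with an unadjusted p under 0.05. Its ratios were 0.14, 0.48, 0.21 and -0.078 in replicates 1 to 4 at 192 h, against -0.30, -0.16, 0.20 and -0.040 at 18 h. The groups overlapped, and the difference was 0.26 (SE 0.12). That difference was 0.032 from arrays with tumor RNA in Cy3 and 0.49 from those with tumor RNA in Cy5. Its sign turned in replicates 3 and 4 alone. Eif3m, a subunit of the initiation factor eIF3, had a difference of -0.23 (SE 0.096), while the 4 translation factors tested had a median of -0.047 (-0.14 without replicate 1 at 192 h).

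Median differences were positive for 3 negative acute phase and transport proteins (0.052), 4 apolipoprotein genes (0.076), 3 iron and heme genes (0.13), 3 matrix genes (0.041) and 5 heat shock genes (0.0096). They were negative for 8 complement genes (-0.024), 7 cholesterol genes (-0.042), 10 bile acid genes (-0.0053), 8 proteasome subunits (-0.014), 6 genes of IL-6 and NF-kB signalling (-0.020) and 2 interferon response genes (-0.085). Without replicate 1 at 192 h the sign turned for cholesterol genes (0.12), bile acid genes (0.012) and genes of IL-6 and NF-kB signalling (0.013). Without it the median was -0.098 for proteasome subunits, 0.059 for heat shock genes, 0.084 for negative acute phase and transport proteins and 0.033 for apolipoprotein genes. Lists with 1 tested gene were the circadian clock (Clock, 0.021), the growth hormone axis (Igfbp7, -0.18, and -0.084 without replicate 1 at 192 h), the cell cycle (Cdk2, 0.067), endothelial cells (Clec4g, 0.17), stellate cells (Dcn, 0.14) and cholangiocytes (Sox9, 0.16).

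The core of the antioxidant response element, TGAC followed by GC with 3 bases between them, was found on either strand in 12.4% of 32851 promoters. Of 9 measured antioxidant genes with a promoter sequence, 4 held it: Gclm, Pon3 and Txnrd1 with differences of 0.48, 0.29 and 0.20, and Srxn1 with -0.17.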
